A study of Papio anubis with 25 samples.

Results

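The 3 parotid libraries richest in salivary gland transcripts were compared with all 5 pancreas libraries of the same series, 8 of its 25 libraries. Parotid libraries were chosen by their level of BPIFA2, which encodes a protein secreted by parotid acini: 3 of the 5, those of baboons 1, 3 and 4, held the required 2000 TPM or more. TPM is transcript abundance per length, scaled so that each library sums to the same total. The lowest library inside the threshold held 5051 TPM of BPIFA2, and those outside it held 1108 TPM (baboon 5) and 507 TPM (baboon 2). The label "gland-rich" rests on this measured value, so levels of salivary secretory genes in the chosen libraries are given as a description, without a test. The choice favours other genes whose level goes with that of BPIFA2, so p-values of genes higher in parotid are not independent of it, and counts of such genes are also given with all 5 parotid libraries.

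The study took pancreas, liver and the parotid, submandibular and sublingual glands of 5 olive baboons (Papio anubis) to compare amylase gene expression in salivary and digestive tissue. Each animal gave 1 mRNA library per tissue, prepared from thin sections of flash-frozen tissue, for parotid from the left gland. The parotid libraries used came from 3 females (baboons 1, 3 and 4), and the pancreas libraries from those 3 animals, another female (baboon 2) and 1 male (baboon 5). No treatment or genetic change is given in the labels, and animal ages are not given in the sources used here.

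Parotid and pancreas are both built of acini, which package proteins into granules for release on demand, and of ducts that modify the fluid. Parotid acini make a watery saliva with proline-rich proteins, histatins and antimicrobial proteins, and their ducts take up salt. Pancreatic acini make the precursors of digestive enzymes under the control of their own set of transcription factors, the ducts add bicarbonate, and islets between the acini release hormones to the blood.

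Values are given in the order of baboons 1, 3 and 4 for parotid and of baboons 1 to 5 for pancreas. The 4 genes that mark the groups stood as labelled. BPIFA2 was at 19382, 5051 and 15809.6 TPM in parotid and at 1048, 1229.7, 936, 892 and 582 TPM in pancreas. LPO, the salivary peroxidase, was at 129.9, 148 and 100.2 TPM in parotid and at 5.11, 6.37, 3.61, 4.14 and 3.24 TPM in pancreas. For both genes every chosen parotid library lay above every pancreas library. For BPIFA2 the choice fixed this, since the threshold of 2000 TPM lies above every pancreas value. Liver held 562 to 1414 TPM of BPIFA2 and 3.35 to 7.05 TPM of LPO. CPA1, a carboxypeptidase of pancreatic juice, was at 44.5, 300.3 and 157 TPM in parotid and 40562, 31451, 26663, 55949 and 27565 TPM in pancreas. CEL, the bile salt-dependent lipase, was at 10.1, 73.4 and 37.1 TPM in parotid and 11225, 7330.4, 7505, 12362 and 8670.3 TPM in pancreas. Both enzymes were lowest in the parotid of baboon 1 and highest in that of baboon 3, with a wide gap to pancreas in every library.

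A handful of genes filled most of each gland-rich parotid library. The 10 most abundant genes of a library took 83.2%, 66.2% and 87.7% of all TPM in parotid, against 40.3 to 46.7% in pancreas. LOC103881672, a gene without a symbol of its own that lies between TAS2R42 and ETV6 in the gene table, was at 416757, 363990.0 and 448743 TPM and held more than any other gene. PRH2, an acidic proline-rich protein of saliva, followed at 136723, 105547 and 193793 TPM, and LOC103884417, next to HTN1, at 123840.0, 48707 and 146610.0 TPM. LOC101023064 and LOC101011282, the latter beside OPRPN, ranged over 24915 to 62498 and 9800.3 to 52159.5 TPM in parotid. With BPIFA2 these 6 genes took 81.1%, 55.8% and 86.2% of the parotid libraries. Their share was 1.24 to 2.93% in pancreas and 1.47 to 3.31% in liver.

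The pancreas was spread over more genes. Its 10 most abundant were CLPS, LOC100998585, LOC101027045, PLA2G1B, CPA1, LOC101007403, LOC101010627, LOC116272950, CPB1 and CTRL, and together they took 38.7 to 44.0% of a pancreas library. LOC100998585 and LOC101007403 lie between EPHB6 and PRSS58, LOC101010627 between PNLIPRP1 and PNLIPRP3, and LOC101027045 between EFHD2 and CASP9. In gland-rich parotid the same 10 genes took 0.05 to 0.306%, and in liver 0.256 to 0.437%. The other 4 of the 10 most abundant parotid genes were COX1, ATP6, COX2 and COX3, encoded by the mitochondrial genome. All mitochondrially encoded genes together took 3.32%, 14.8% and 1.6% of the parotid libraries and 5.59 to 9.89% of the pancreas libraries, so the parotid of baboon 3 stood above and the other parotid libraries below the pancreas range.

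**Figure D1:**
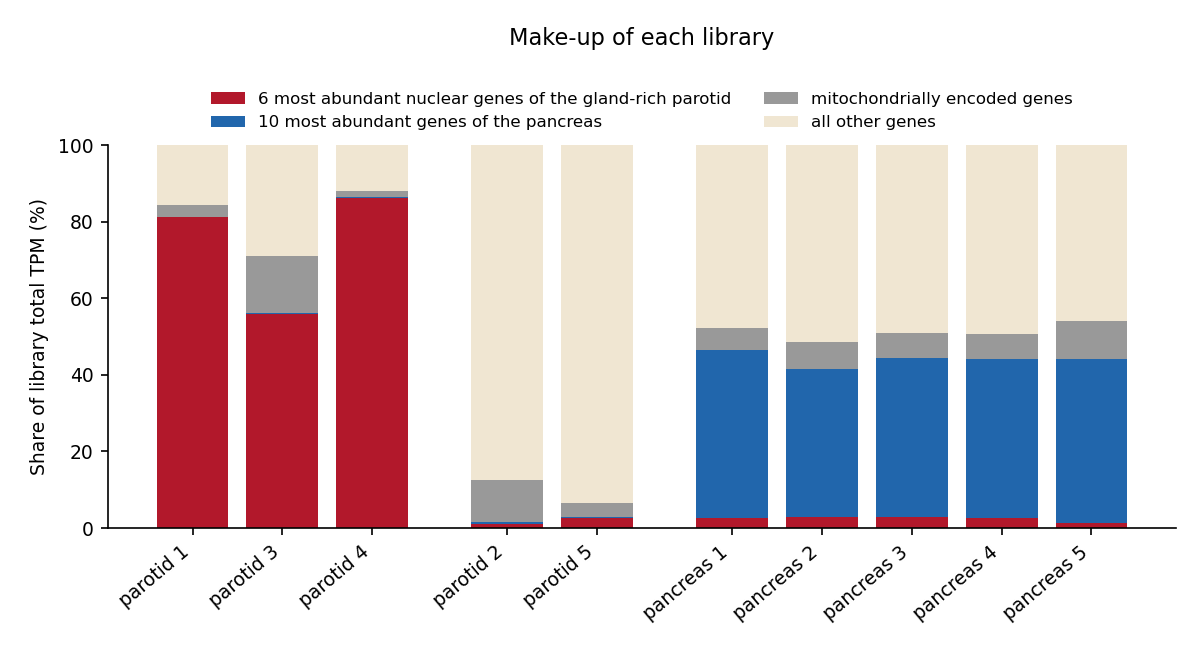
Share of total TPM (%) taken in each library by the 6 most abundant nuclear genes of the gland-rich parotid, the 10 most abundant genes of the pancreas, the mitochondrially encoded genes and all other genes. Parotid 1, 3 and 4 are the gland-rich libraries, where the first set takes 55.8% to 86.2%; parotid 2 and 5 did not reach the BPIFA2 threshold.

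Of 21287 genes, 11420 averaged 1 TPM or more in parotid or pancreas and were tested with limma. A gene near 0 in 1 group passed this filter through the other group, so calls among such genes are not independent of it. Fold changes are log2 throughout, and a gene is said to rise or fall when its log2 fold change of TPM + 1, parotid minus pancreas, was at least 1 in size at a Benjamini-Hochberg adjusted p under 0.05. By this rule 10.1% of the genes tested differed: 338 genes were higher in parotid (2.96% of those tested) and 818 lower (7.16%). Of these, 333 and 791 did not overlap between the groups, a separation seen for 5.31% (higher) and 12.3% (lower) of all genes tested. The direction was the same in all 3 animals with both tissues for 336 and 812 of them.

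TPM of a library add up to a fixed total, so a share taken by 6 genes is not open to the other genes of that library. The median TPM of a library was 0.639, 1.53 and 0.384 in parotid and 0.72 to 1.02 in pancreas. Parotid 3 thus lay above the pancreas range and the other parotid libraries below it. The part of the 6 genes in these levels was not tested. The median log2 fold change of all genes tested was -0.25, and TMM scaling, which sets the middle of the genes level between libraries, moved it to -0.01, a shift of 0.24. With TMM scaling 690 genes were higher (6.14%) and 807 lower (7.18%), so higher genes made up 46.1% of all calls, against 29.2% as deposited; all 338 and 709 of the 818 were among them. With all 5 parotid libraries in the fit, 67 genes were higher (0.494%) and 240 lower (1.77%), 2.26% together. Adding TMM scaling to that fit gave 272 (2.17%) and 775 (6.18%), 8.35% together. The count of lower genes turned on single parotid libraries: it was 2460 without that of baboon 3, 496 without that of baboon 1 and 495 without that of baboon 4, but 654 to 828 when each was left out after TMM scaling.

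Salivary secretory products led the genes higher in parotid. Of 45 listed, 30 were in the table and 25 passed the filter on low values. Of these, 12 lay higher in each gland-rich parotid library than in any pancreas library and 2 lower. Such separation was seen for 5.31% (higher) and 12.3% (lower) of all genes tested. HTN1, a histatin with antifungal activity, had the largest log2 fold change among the genes named by rule (6.37). It was at 2690.1, 9686 and 1738 TPM in parotid and at 28.3, 48.2, 101, 55.0 and 20.8 TPM in pancreas. PRR27 was at 252, 252 and 469 TPM against 5.3 to 11.6 TPM (5.06). Of the proline-rich PRH2, pancreas held 5733, 6193, 6439.9, 6042 and 1711 TPM (4.96), with baboon 5 well below the other 4 animals, and liver 2436 to 6606 TPM. These genes separated the groups without overlap. With all 5 parotid libraries in the fit their fold changes were 3.49, 2.91 and 2.65. The same fit in limma called none of the 12 genes, as deposited or with TMM scaling. Of the 12, 11 had an unadjusted limma p under 0.05 as deposited. The 12, BPIFA2 among them, were picked in 3 of those 5 libraries, so these p-values are not independent of the choice. Their low levels in pancreas were close to those in liver; carry-over of reads between libraries was not tested, and a fold change against such a level holds only for these values.

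Defence proteins of saliva showed the same separation with wider spread. LYZ, the lysozyme, was at 729, 1311 and 128 TPM in parotid and 91.2, 106, 22.2, 16.9 and 112 TPM in pancreas, with the parotid of baboon 4 close to the pancreas range. CA6, the carbonic anhydrase of saliva, was at 1455, 973 and 2181 TPM against 186 to 379.9 TPM. LCN2, which binds bacterial iron carriers, was at 179.6, 238 and 82.9 TPM against 10.3 to 49.3 TPM, and DMBT1, a mucin-like agglutinin, at 12.7, 11.8 and 4.02 TPM against 0.526 to 3.67 TPM. The parotid of baboon 4 was the lowest of the 3 for all but CA6 among these genes. FDCSP was at 103, 211 and 29.9 TPM against 0.806 to 10.6 TPM (3.94). OPRPN, the opiorphin precursor, was far higher in baboon 1 than in the others, at 252, 9.88 and 17.2 TPM against 0.0775 to 4.96 TPM (3.81). PRR4, another proline-rich protein, ranged over 6.89 to 59.5 TPM in parotid and 0.161 to 2.41 TPM in pancreas.

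Not every salivary product set the groups apart. MUC7, a salivary mucin, was at 106, 141 and 77.6 TPM in parotid, 63.0 to 281 TPM in pancreas and 59.8 to 485 TPM in liver, and PIP and ZG16B overlapped in the same way. AZGP1 was at 318, 239 and 261 TPM in parotid, below 596 to 899.9 TPM in pancreas, and EGF, a growth factor, at 1.44, 4.9 and 1.69 TPM against 5.55 to 13.8 TPM. In the parotid libraries of baboons 2 and 5, both values of 9 of the 12 genes lay at or under the highest pancreas value, and FDCSP was at 4.33 and 455 TPM there.

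**Figure D2:**
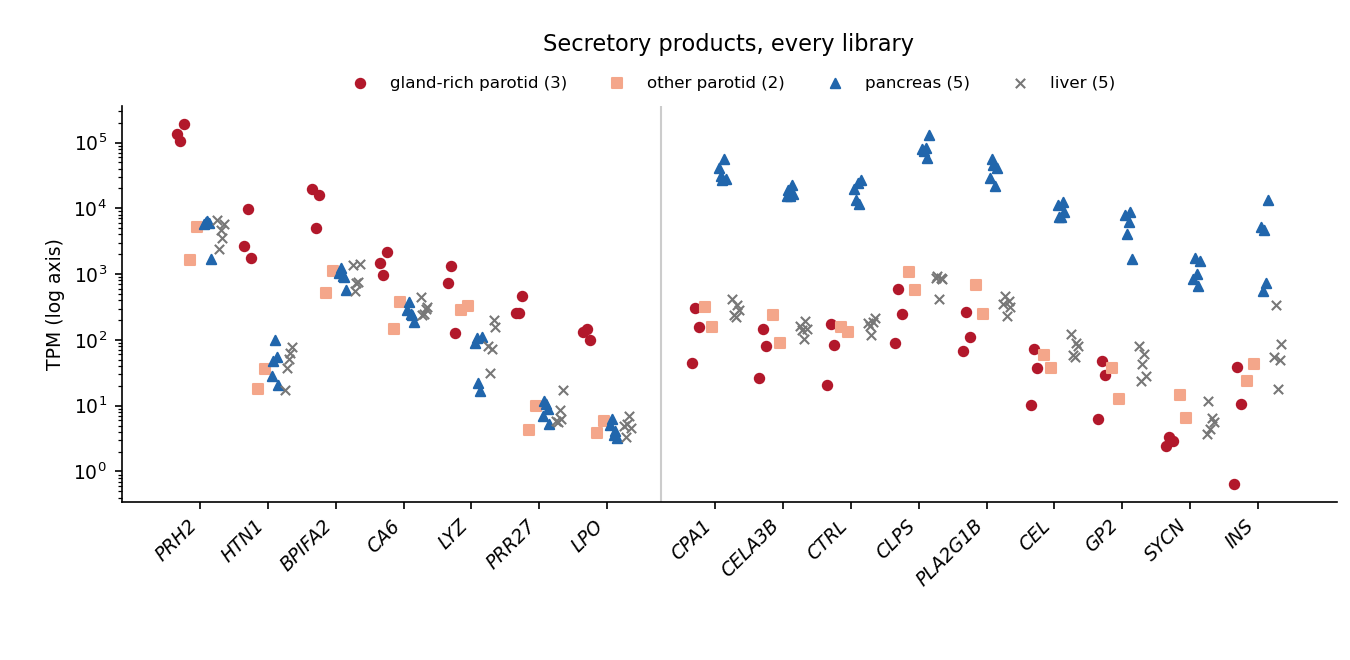
TPM (log axis) of salivary secretory genes (left) and pancreatic secretory genes (right) in every parotid, pancreas and liver library; each point is 1 library. Gland-rich parotid lies above pancreas for the 7 salivary genes and below it for the 9 pancreatic genes, where it sits near or under the liver points. For BPIFA2 the choice of libraries fixed the separation.

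Most enzyme and granule genes of the pancreatic acinus lay far lower in parotid. Over 8 tested protease genes the median was -7.72 on the log2 scale, where the median of all genes was -0.25. Of the 8, 7 fell, beside 7.16% of all genes tested. Besides CPA1 (-8.05, SE 0.56, adjusted p = 5.17e-07) these included CTRL, a chymotrypsin (-8.07), the elastases CELA3B (-7.99) and CELA1 (-7.72), CPB1 (-7.72) and CTRB2 (-7.17). CELA3B was at 26.1, 145 and 80.9 TPM in parotid and 15352, 18880.0, 15502, 22423 and 16266 TPM in pancreas. The parotid values of these 7 genes reached no higher than the highest liver value of the same gene, with CELA3B at 103 to 191 TPM in liver. KLK1, tissue kallikrein, a protease that salivary ducts make as well, was the exception. It was at 266, 2113 and 359 TPM in parotid and 2011, 2136, 1789, 1614 and 2094 TPM in pancreas, so the parotid of baboon 3 lay inside the pancreas range and the others below it. Its difference of -1.72 (SE 0.59) missed the threshold in limma (adjusted p = 0.0856). The difference passed after TMM scaling (-1.31, adjusted p = 0.0317) and without parotid 3 (-2.60, adjusted p = 0.000113). It also passed with the animal as a fixed block (-1.61, adjusted p = 0.00652), a fit that pools the spread over genes.

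Of the 5 genes tested in the list of lipases and nucleases, the 4 of fat digestion fell, beside 7.16% of all genes tested. CLPS, the colipase that anchors pancreatic lipase to fat, had the largest fall of all named genes (-8.46, SE 0.57, adjusted p = 3.88e-07), from 79149, 75345, 83261, 58983 and 128694 TPM in pancreas to 88.3, 603 and 248 TPM in parotid. PLA2G1B, the secreted phospholipase, fell by 8.21, CEL by 8.16 (SE 0.54) and PNLIPRP1, a lipase-related protein, by 7.65. DNASE1 was low in both tissues, at 1.86, 12.8 and 7.28 TPM in parotid and 2.42, 2.57, 4.08, 3.29 and 4.26 TPM in pancreas, and did not pass the test (0.69, adjusted p = 0.449).

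Proteins of the zymogen granule followed the enzymes they are packed with. Of 7 tested 6 fell, beside 7.16% of all genes tested, with a median of -7.69 over the 7. SYCN, a granule membrane protein, was at 2.41, 3.36 and 2.91 TPM in parotid and 841, 1769, 1008, 662 and 1582 TPM in pancreas (-8.22, SE 0.40, adjusted p = 7.01e-08), with the 3 parotid libraries close together. ZG16 fell by 8.20 and GP2, the main glycoprotein of the granule membrane, by 7.69. SPINK1, which inhibits trypsin inside the granule, was at 28.5, 117 and 63.6 TPM against 12112, 18106, 14933, 11279.7 and 20606 TPM (-7.99); liver held 1009 to 2492 TPM of it. CUZD1 and ERP27 had log2 fold changes of -7.13 and -7.03, and REG1B did not pass the test (-2.03, adjusted p = 0.0733). REG1B was called lower in 8 of the 24 alternatives. They include the animal as a fixed block (-1.39, adjusted p = 0.0323), a fit that pools the spread over genes. Every one of these granule and protease falls was called after TMM scaling too, and with all 5 parotid libraries. For 18 of the 20 genes tested in these 3 lists the highest parotid value was at or under the highest liver value. Carry-over of reads between libraries was not tested, and the size of a fall depends on these low values. In bulk RNA, fewer cells of a type and less RNA per cell cannot be told apart.

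Amylase genes are known to lie between RNPC3 and PRMT6 in primates, and 4 protein-coding genes without a symbol stood there in the gene table. Summed, they were at 4752, 3365 and 6849.9 TPM in parotid and at 19693, 16137, 22053, 19557 and 18504 TPM in pancreas. LOC101017419, the main one in pancreas at 10475, 9141, 12893, 12165 and 14641 TPM, was at 44.5, 123 and 51.0 TPM in parotid (-7.46, SE 0.42); liver held 102 to 347 TPM. LOC101018739 was at 203, 337 and 517 TPM in parotid and 6648, 5976, 7784, 6286 and 3667 TPM in pancreas (-4.12, SE 0.42), and its parotid values all lay above the highest liver value of 149.9 TPM. LOC116268615 went the other way, at 4505, 2905 and 6282 TPM in parotid and 2569.6, 1019.7, 1376, 1107 and 197 TPM in pancreas, every parotid library above every pancreas library. It made up 94.8%, 86.3% and 91.7% of the parotid sums and 1.06% to 13.0% of the pancreas sums. Its fold change of 2.32 (SE 0.68, adjusted p = 0.0451) was no longer called without parotid 1 or 4 or pancreas 2, 3 or 4 (adjusted p = 0.0536 to 0.14), and was 0.12 with all 5 parotid libraries, where baboons 2 and 5 held 97.2 and 145 TPM. LOC101008727 was close to 0 in all 8 libraries. Reads of near-identical gene copies may be divided between them by the quantification, so the values of single copies are uncertain.

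**Figure D3:**
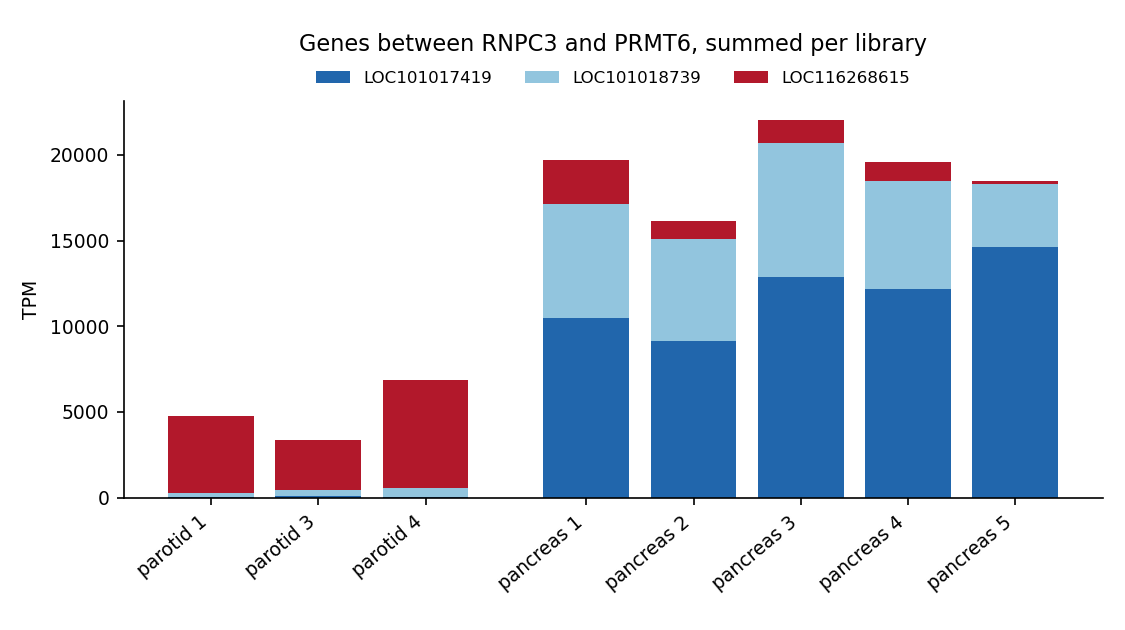
TPM of 3 genes between RNPC3 and PRMT6, stacked for each gland-rich parotid and each pancreas library. LOC116268615 makes up 86.3% to 94.8% of the parotid bars and 1.06% to 13.0% of the pancreas bars, which are the taller ones.

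Islet genes were lower in parotid where pancreas held much of them. INS, insulin, was at 0.655, 38.3 and 10.7 TPM in parotid and at 5248, 562, 4704, 732 and 13411 TPM in pancreas (-8.20, SE 1.12, adjusted p = 0.000245), so pancreas libraries themselves ranged widely. IAPP, co-secreted with insulin, fell by 5.60 (SE 1.05), and the beta-cell potassium channel subunits KCNJ11 and ABCC8 by 2.53 and 2.05. TTR, a thyroid hormone carrier, had a fold change of -2.47. In all, 6 of the 12 tested fell, of 16 in the table, beside 7.16% of all genes tested. GCG, the glucagon gene, spanned 0.752 to 279.6 TPM in pancreas and did not pass the test (-3.35, SE 1.41, adjusted p = 0.171). It was called lower in 2 of the 24 alternatives, among them the animal as a fixed block (-3.57, adjusted p = 2.49e-09). That fit pools the spread over genes, so its p-value does not measure the wide spread of GCG.

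Of 18 tested transcription factors of the pancreas 13 fell, as deposited and after TMM scaling, with a median of -2.52. Among all genes tested 7.16% and 7.18% fell. In the table were 24 of the list, and 6 of them were too low to test. Summed, the list was at 4.58 to 11.6 TPM in parotid and 447 to 834 TPM in pancreas. Most members thus passed the filter through pancreas, which favours a fall, so the count is not independent of the filter. RBPJL, the acinar partner of PTF1A, was at 0.991, 4.24 and 1.88 TPM in parotid and 422, 699, 592, 441 and 327 TPM in pancreas (-7.27, SE 0.42, adjusted p = 1.89e-07). PTF1A itself, needed to form the pancreas, was at 0.0185, 0.303 and 0.189 TPM against 56.8, 30.6, 56.7, 59.6 and 23.0 TPM (-5.14). FOXA2, a factor of endoderm-derived organs, was at 0.12, 0.303 and 0.202 TPM in parotid and 18.7, 15.7, 13.7, 19.7 and 18.7 TPM in pancreas (-3.91). MNX1, FOXA3, NR5A2, PDX1 and GATA4 fell by 3.21, 3.06, 3.06, 2.87 and 2.70. PDX1, the regulator of pancreatic bud and beta cell, was at 0, 0.0345 and 0.0633 TPM in parotid. All 13 lay lower in each gland-rich parotid library than in any pancreas library. That separation held for 12.3% of all genes tested and for 791 of the 818 called lower. On the TPM + 1 scale the change of such low genes is understated. Of these 13, 11 were still called with all 5 parotid libraries; GATA6 was not, being at 2.52 and 5.47 TPM in baboons 2 and 5.

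The factors of salivary and oral epithelium mirrored this. Of 19 tested, 10 rose (13 with TMM scaling) and 1 fell, with a median of 1.99. Among all genes tested 2.96% rose (6.14% with TMM scaling) and 7.16% fell. SOX10, known from salivary acini and neural crest, was at 34.5, 37.3 and 29.1 TPM in parotid and 1.2, 1.56, 0.994, 1.52 and 0.735 TPM in pancreas (3.99, SE 0.31). FOXC1, needed for lacrimal and salivary gland growth, was at 30.1, 63.4 and 21.5 TPM against 1.23 to 2.84 TPM (3.70). PITX1, a factor of oral ectoderm, was at 40.8, 66.0 and 32.2 TPM against 1.35 to 5.34 TPM (3.65). All of these stood well clear of pancreas in each gland-rich library. In the parotid libraries of baboons 2 and 5, SOX10 was at 1.55 and 1.33 TPM and PITX1 at 3.24 and 4.08 TPM, inside the pancreas range. Both of these libraries lay at or under the highest pancreas value for 6 of the 10 risen factors, and above it for 2. PAX9, which patterns teeth and oral tissue, was found by the naming rule and not by the list, at 25.3, 38.0 and 31.7 TPM against 0.96 to 2.5 TPM (3.75), as was FAM107A at 34.4, 58.9 and 43.8 TPM against 1.37 to 3.94 TPM (3.73). PAX9 was not called with all 5 parotid libraries (2.29, adjusted p = 0.202) and FAM107A was (2.83, adjusted p = 0.0274), a call lost with TMM scaling added.

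SPDEF, ELF5, TFCP2L1, BARX2, EHF and ASCL3 rose by 3.23, 3.15, 2.59, 2.50, 2.11 and 1.99; ASCL3 marks a population of duct cells and TFCP2L1 is a factor of salt-handling ducts. Both of these, EHF and ELF5 were highest in the parotid of baboon 3 (ASCL3 at 3.24, 10.2 and 1.99 TPM). With all 5 parotid libraries 1 of the 10 was called, while 7 of the 10 had an unadjusted limma p under 0.05. That call was lost once TMM scaling was added.

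Of the factors that both glands use, BHLHA15 (MIST1), which scales up the secretory apparatus of acini, was at 47.0, 37.2 and 82.3 TPM in parotid and 115, 40.3, 81.6, 102 and 22.2 TPM in pancreas. The ranges overlapped, the difference of -0.10 (SE 0.54, adjusted p = 0.937) did not pass the test, and its sign changed with TMM scaling (0.01) and without pancreas 1, 3 or 4 (0.00 to 0.15). XBP1, which drives the build-up of endoplasmic reticulum, was at 47.9, 38.2 and 47.8 TPM against 211, 164, 130.0, 182 and 89.9 TPM and fell (-1.69, SE 0.37, adjusted p = 0.00885; -1.39 with TMM scaling). In the other parotid libraries it was at 73.8 and 275 TPM.

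Water channels divided between the organs, each of the 7 tested being called, beside 10.1% of all genes tested. In the table were 12, of which 5 were too low to test. AQP12B passed the filter through pancreas alone and AQP2 through parotid alone, so the count is not independent of the filter. AQP5, the apical channel of salivary acini, was at 107, 48.3 and 53.9 TPM in parotid and 4.52, 3.65, 2.89, 2.53 and 2.76 TPM in pancreas (3.98, SE 0.37, adjusted p = 7.7e-06). AQP3, which also carries glycerol, was at 62.0, 35.6 and 82.3 TPM against 2.01, 4.21, 2.52, 1.45 and 1.66 TPM (4.13, SE 0.38), and AQP1, found in vessels and myoepithelium of salivary glands, at 45.8, 64.2 and 46.6 TPM against 3.13, 5.69, 3.45, 4.7 and 3.97 TPM (3.34). The 3 channels were far above pancreas in each gland-rich library. AQP2, better known from the kidney, was at 2.51, 2.65 and 0.673 TPM against 0.0654 to 0.169 TPM (1.30) and was not called without parotid 1 (adjusted p = 0.059). In reverse, AQP8 was at 0.605, 4.58 and 1.63 TPM in parotid and 489.7, 311, 399, 409 and 357 TPM in pancreas (-7.06, SE 0.41, adjusted p = 1.94e-07). AQP12B, a channel of acinar cells in the pancreas, was at 0.138, 0.977 and 0.373 TPM against 174, 157, 114, 114 and 113 TPM (-6.52), and AQP11 fell by 1.32, a call lost without parotid 1 or 4 (adjusted p = 0.0555 to 0.0797). All 7 held after TMM scaling. With all 5 parotid libraries AQP1, AQP8 and AQP12B were called; AQP1 was at 269.5 and 36.2 TPM in the other parotid libraries and AQP5 at 2.25 and 3.64 TPM.

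Genes for chloride and bicarbonate secretion split evenly, 5 of 17 tested rising and 5 falling as deposited, 7 and 4 with TMM scaling. Of all genes tested 2.96% rose and 7.16% fell as deposited, and 6.14% and 7.18% with TMM scaling. ANO1, the calcium-gated chloride channel of acini, was at 18.6, 24.9 and 22.4 TPM in parotid and 1.01, 1.27, 1.04, 0.99 and 0.717 TPM in pancreas (3.52, SE 0.30, adjusted p = 3.06e-06). CFTR, the chloride and bicarbonate channel of pancreatic ducts, was at 0.13, 0.841 and 0.115 TPM against 6.17, 3.74, 4.35, 5.79 and 2.37 TPM (-1.95, SE 0.35, adjusted p = 0.00202). SLC4A4, which loads bicarbonate into duct cells, was at 0.00892, 0.111 and 0.0226 TPM against 2.65 to 5.02 TPM (-2.18). In each of these 3 genes the groups did not overlap.

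The potassium channels that set the driving force for secretion also differed, with KCNN4 at 36.9, 49.8 and 14.8 TPM in parotid against 1.94 to 3.54 TPM (3.08), KCNMA1 rising by 1.53 and KCNQ1 falling by 1.81, a call lost without parotid 1 or 4 (adjusted p = 0.0512 to 0.0575). Of the carbonic anhydrases CA12 rose by 2.63 and CA4 fell by 2.88. SLC4A2, an anion exchanger, fell by 1.29 (adjusted p = 0.0282) and was not called after TMM scaling (-0.97), with the animal as a fixed block (adjusted p = 0.101) or without parotid 1 or 4 or pancreas 2, 3 or 4 (adjusted p = 0.0601 to 0.133). SLC12A2, the cotransporter that brings chloride into acinar cells, was at 0.488, 0.764 and 0.351 TPM in parotid and 0.538 to 1.05 TPM in pancreas, too low to enter the test. Both other parotid libraries lay above every pancreas library for all 5 genes that rose, and 3 of the 5, KCNN4 and CA12 among them, were called with all 5 parotid libraries.

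Of 11 tested genes of ductal salt handling 4 rose and 1 fell, and 5 and 1 with TMM scaling. The shares over all genes tested were 2.96% and 7.16%, and 6.14% and 7.18% with TMM scaling. HSD11B2, which guards the aldosterone receptor from cortisol, was at 7.31, 48.6 and 17.7 TPM in parotid and 1.95 to 3.21 TPM in pancreas (2.47, SE 0.48). ATP6V1B1, a proton pump subunit, and the duct keratin KRT7 rose by 1.90 and 1.85. ATP6V1B1 was not called without pancreas 4 (adjusted p = 0.057), nor KRT7 without parotid 1 or pancreas 3 (adjusted p = 0.0557 to 0.0573), and KRT7 overlapped between the groups. PRSS8, a protease that activates the epithelial sodium channel, was at 39.3, 57.5 and 44.2 TPM against 22.0, 21.9, 20.7, 25.0 and 13.0 TPM (1.20, adjusted p = 0.0374); leaving out any 1 of the 8 libraries ended this call (log2 fold change 0.96 to 1.31, adjusted p = 0.0142 to 0.0914), as did the animal as a fixed block (adjusted p = 0.229), and the sign turned with all 5 parotid libraries (-0.14). SGK1, a kinase that raises sodium uptake, ran against the list's direction, at 0.707, 3.78 and 0.697 TPM against 25.7, 39.6, 15.9, 32.0 and 16.3 TPM (-3.41, SE 0.44, adjusted p = 0.000159). None of the 4 risen genes was called by limma with all 5 parotid libraries, and 2 had an unadjusted p under 0.05. The parotid of baboon 3 was the highest of the 3 for each of the 4.

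Receptors for secretory signals were mostly low, 8 of 20 passing the filter. Of these 2 rose and 3 fell, beside 2.96% and 7.16% of all genes tested. ADRB1, the beta-adrenergic receptor through which sympathetic nerves trigger protein release in parotid, was at 3.85, 10.5 and 3.75 TPM and at 0.152, 0.392, 0.211, 0.193 and 0.196 TPM in pancreas (2.38, SE 0.34, adjusted p = 0.000365). SCTR, the secretin receptor of pancreatic ducts, was at 0.0506, 0.297 and 0.13 TPM against 40.2, 47.8, 29.4, 37.7 and 33.2 TPM (-5.06, SE 0.31, adjusted p = 2.41e-07). CCKAR, the cholecystokinin receptor, was at 0.0396, 0.213 and 0.0988 TPM against 46.6, 5.44, 1.22, 7.94 and 5.28 TPM (-2.84, adjusted p = 0.0232), with baboon 1 far above the other pancreas libraries, and was not called without parotid 4 (adjusted p = 0.102). Each of these separated the groups.

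VIPR1, a receptor for vasoactive intestinal peptide, rose by 1.70, and it was the receptor still called higher with all 5 parotid libraries. GRPR, which binds gastrin-releasing peptide, fell by 1.22 (adjusted p = 0.0282) and was not called without parotid 1 or 4 or pancreas 2, 3 or 4 (adjusted p = 0.0604 to 0.0878). CHRM3, the muscarinic receptor that both organs use, was at 0.955, 2.37 and 1.11 TPM in parotid and 1.79, 1.53, 0.729, 1.22 and 0.382 TPM in pancreas and did not pass the test (0.24, SE 0.32, adjusted p = 0.732; 0.41 with TMM scaling). Its sign turned without parotid 3 (-0.10, adjusted p = 0.745) and with all 5 parotid libraries (-0.18).

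**Figure D4:**
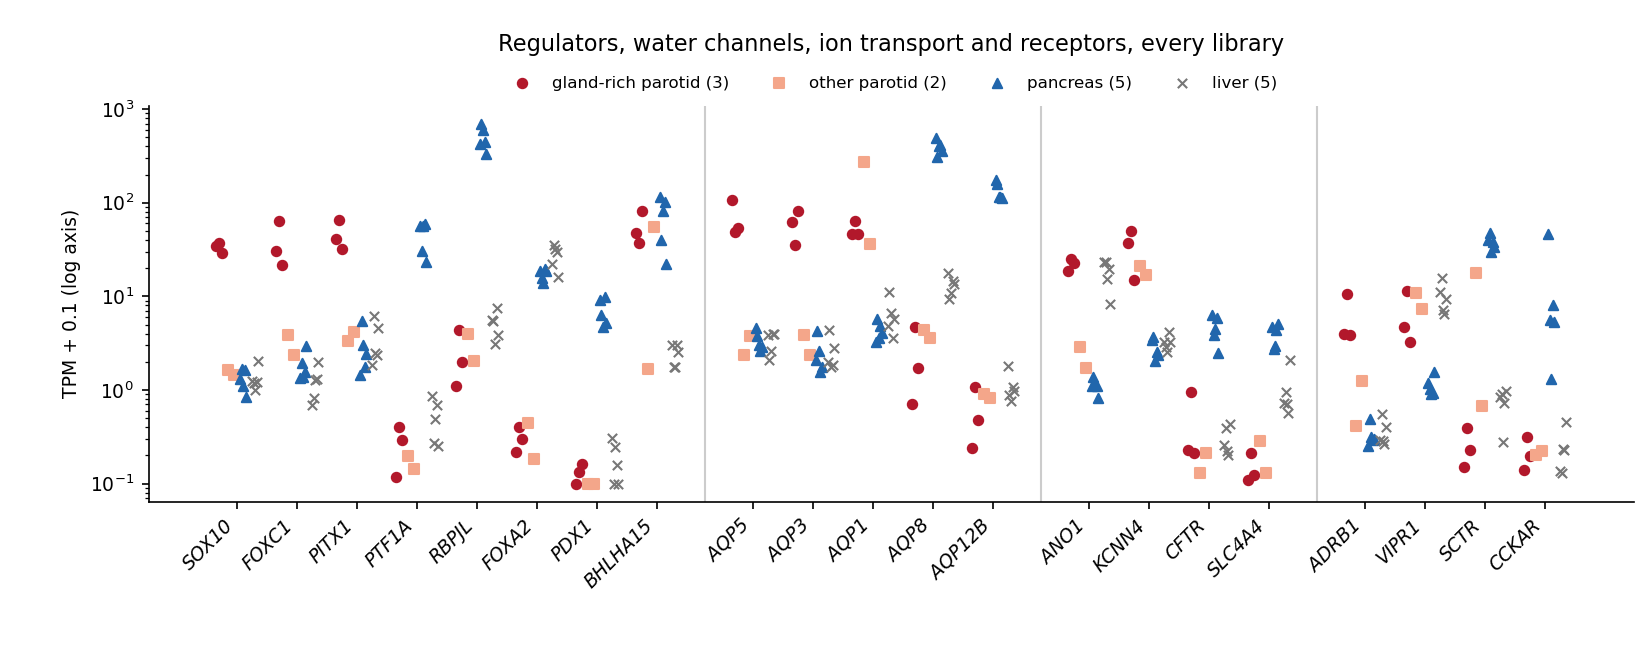
TPM + 0.1 (log axis) of transcription factors, water channels, ion transport genes and secretagogue receptors in every parotid, pancreas and liver library; each point is 1 library. Red circles are the gland-rich parotid libraries and blue triangles the pancreas libraries: the groups separate for every gene shown except BHLHA15.

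In the machinery of regulated exocytosis 2 of 30 genes tested rose and 1 fell, together near the 10.1% called among all genes tested, and the median was -0.02. RAB27B and SYT7, which dock and trigger granules, rose by 1.20 (adjusted p = 0.0303) and 1.40 (adjusted p = 0.0163), and RAB26, a granule GTPase, fell by 1.60 (adjusted p = 0.0211). Each of the 3 calls was lost when single libraries were left out: RAB27B was lost without parotid 3 or pancreas 2, 3, 4 or 5 (log2 fold change 0.87 to 1.28, adjusted p = 0.0211 to 0.0831), SYT7 without parotid 1 or pancreas 2 (adjusted p = 0.0579 to 0.0588) and RAB26 without parotid 1 or 4 or pancreas 2 or 3 (adjusted p = 0.0507 to 0.121). With the animal as a fixed block RAB27B and SYT7 were not called (adjusted p = 0.0536 and 0.093). Neither of the risen pair was called by limma with all 5 parotid libraries, and 1 had an unadjusted p under 0.05. The granule proteins RAB3D at 8.67, 11.9 and 12.8 TPM in parotid and 13.6 to 42.5 TPM in pancreas, and VAMP8 at 131, 233 and 105 and 83.3 to 118 TPM, did not pass the test.

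Genes of protein entry and folding in the endoplasmic reticulum that were called as deposited were lower in parotid. The direction of the list depended on the scaling. Without the 10 highest genes of each group, 8 of the 44 were higher and 2 lower (median 0.65), where 5441 of all 14620 genes tested were higher. SSR2, SPCS1, SDF2L1, SIL1 and PDIA5 lost their calls there. With all 5 parotid libraries the median was 0.14. Of 44 tested 9 fell, 7 with TMM scaling, where 7.16% and 7.18% of all genes tested were lower, and the median was -0.67 as deposited and -0.36 after TMM scaling. SSR4, part of the translocon-associated complex, was at 80.7, 90.1 and 69.7 TPM in parotid and 358, 493, 613, 389 and 602 TPM in pancreas (-2.60, SE 0.35, adjusted p = 0.000243). ERO1B, the oxidase of pancreatic disulphide formation, was at 3.72, 10.5 and 4.5 TPM against 45.3, 50.4, 38.3, 37.1 and 30.5 TPM (-2.60), and SSR2, SPCS1, SDF2L1, SIL1 and PDIA5 fell by 1.90, 1.88, 1.67, 1.40 and 1.36. PDIA5 was not called without parotid 1 or pancreas 3 or 4 (adjusted p = 0.0561 to 0.0974). ERP44 and MANF (-1.12 and -1.12) lost the call after TMM scaling, ERP44 also without parotid 1 or pancreas 1, 2, 3 or 4 (adjusted p = 0.0529 to 0.202) and MANF without parotid 1 or 4 or pancreas 1, 2, 3 or 4 (adjusted p = 0.0604 to 0.199). The animal as a fixed block also ended the calls of SIL1, ERP44 and MANF (adjusted p = 0.053, 0.143 and 0.0788). With all 5 parotid libraries 1 of the 9, ERO1B, was called, and 5 of the 44 with TMM scaling added; SSR2 was at 146 and 192 TPM in baboons 2 and 5. HSPA5, the main chaperone, was at 31.3, 35.5 and 51.5 TPM against 36.1 to 91.6 TPM and did not pass the test.

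In the unfolded protein response, 4 of 20 tested genes fell, among them XBP1, beside 7.16% of all genes tested. DERL3, which exports misfolded proteins and is a target of XBP1, was at 26.5, 27.4 and 22.9 TPM in parotid and 206, 205, 203, 170.3 and 146 TPM in pancreas (-2.79, SE 0.32, adjusted p = 5.47e-05), with the 3 parotid libraries close together. SEL1L fell by 2.21, a call lost without parotid 1 or 4 or pancreas 4 (adjusted p = 0.0547 to 0.104), and ASNS by 1.20, a call lost after TMM scaling, with the animal as a fixed block (adjusted p = 0.245) and without parotid 1 or 4 or pancreas 1, 2, 4 or 5 (adjusted p = 0.0658 to 0.154). The 4 calls were lost with all 5 parotid libraries as deposited, and with TMM scaling added 5 of the 20 were lower, beside 6.18% of all genes tested. DERL3 was at 7.85 and 390.3 TPM in the parotid of baboons 2 and 5.

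Among 16 tested enzymes of mucin-type glycosylation 3 rose and 2 fell, beside 2.96% higher and 7.16% lower of all genes tested. ST6GALNAC2, a sialyltransferase, was at 62.5, 73.4 and 41.5 TPM in parotid and 7.58, 8.68, 6.8, 7.26 and 5.16 TPM in pancreas (2.88, SE 0.33, adjusted p = 5.91e-05). GALNT12 and ST3GAL1 rose by 1.47 and 1.56, while GALNT6, which starts O-glycans, was at 1.22, 2.83 and 1.73 TPM against 17.4, 19.0, 13.4, 16.7 and 20.6 TPM (-2.70) and GCNT4 fell by 1.10. The calls of GALNT12, ST3GAL1 and GCNT4 were lost without parotid 3 or pancreas 2, 4 or 5 (log2 fold change 0.97 to 1.54, adjusted p = 0.0179 to 0.0639), without parotid 1 (adjusted p = 0.0595) and without parotid 1 or 4 or pancreas 2, 3 or 4 (adjusted p = 0.0751 to 0.115). GALNT12 and ST3GAL1 were not called with the animal as a fixed block (adjusted p = 0.126 and 0.0684). In the limma fit with all 5 parotid libraries none of the 3 risen genes was called, and 2 had an unadjusted p under 0.05.

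Of 13 tested genes of creatine and glycine metabolism 2 rose and 2 fell, with a median of 0.08. Among all genes tested 2.96% were higher and 7.16% lower. GATM, the first enzyme of creatine synthesis, was at 8.53, 16.9 and 8.82 TPM in parotid and 715, 195, 344, 554 and 101 TPM in pancreas (-4.56, SE 0.58, adjusted p = 0.000134). SLC6A8, the creatine importer, was at 24.3, 17.2 and 32.8 TPM against 5.07, 3.61, 3.43, 3.96 and 2.72 TPM (2.43, SE 0.34, adjusted p = 0.000302). For both genes the groups did not overlap. CKB, a creatine kinase, rose by 1.54, a call lost without parotid 4 or pancreas 2 or 4 (adjusted p = 0.0569 to 0.0704), and GNMT, which uses glycine, fell by 1.70. GATM and GNMT were still called with all 5 parotid libraries, and the risen pair had an unadjusted limma p under 0.05.

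**Figure D5:**
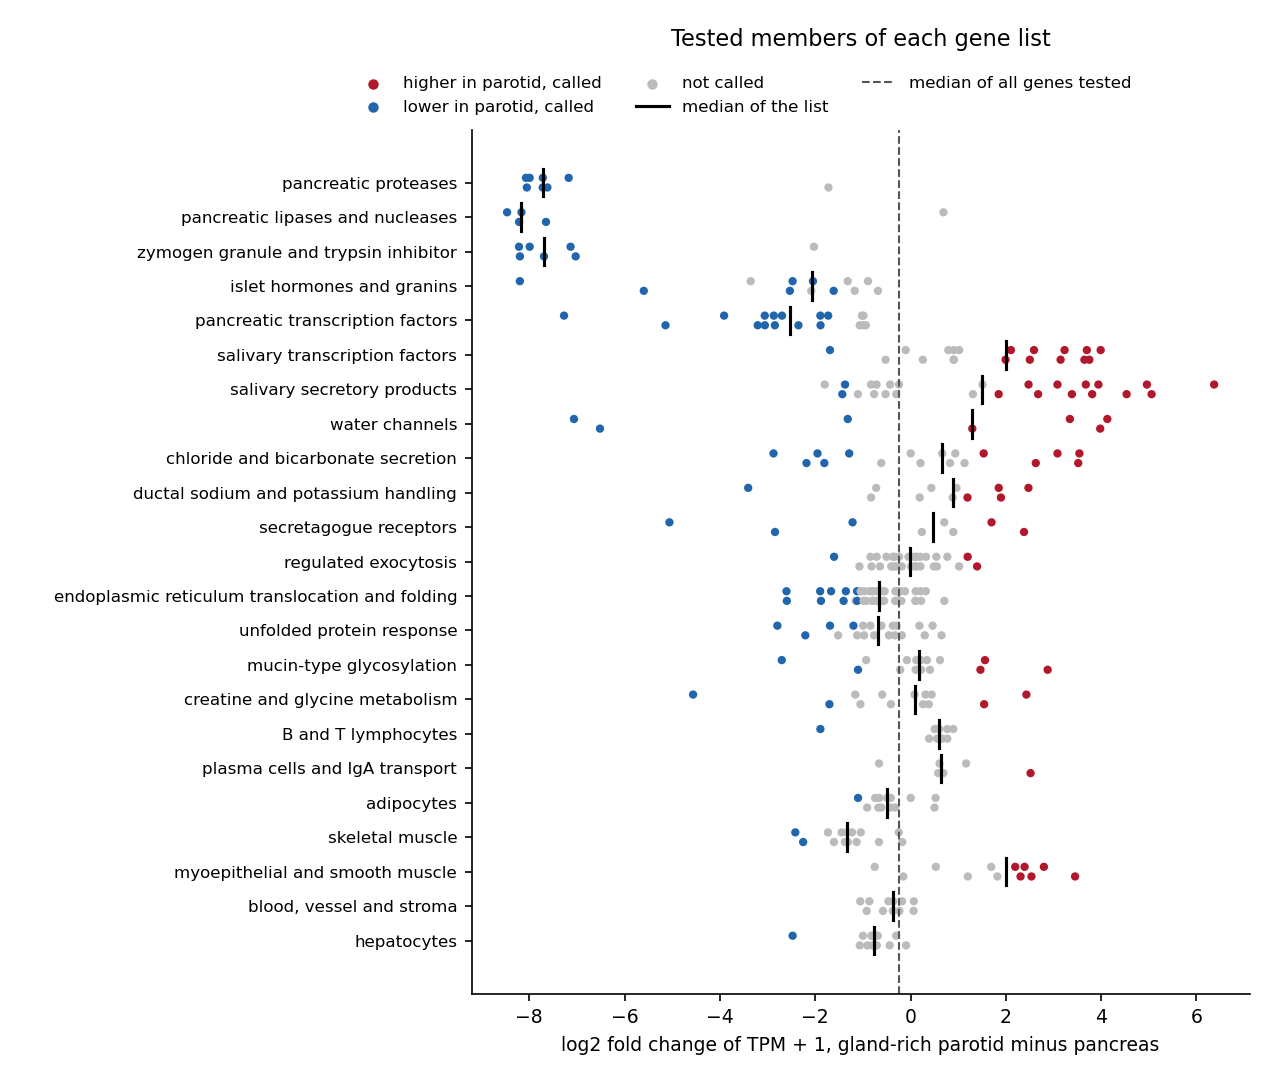
Log2 fold change of TPM + 1, gland-rich parotid minus pancreas, for every tested member of 23 gene lists; colour gives the call and the black tick the median of the list. The dashed line is the median of all genes tested, -0.25; the secretory and salivary lists hold genes whose levels chose the libraries or go with that choice.

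Markers of other cells in the sections were checked in the same way. Of these lists, myoepithelial and smooth muscle genes held the most calls, 6 of 12 tested rising (9 with TMM scaling) with a median of 2.01. Among all genes tested 2.96% rose (6.14% with TMM scaling). KRT14, a keratin of myoepithelial and basal duct cells, was at 61.2, 187 and 19.1 TPM in parotid and 1.41, 7.62, 5.7, 4.74 and 5.03 TPM in pancreas (3.45, SE 0.64, adjusted p = 0.00286). KRT5 and KRT17 rose by 2.80 and 2.54, and the contractile genes MYH11, CNN1 and MYLK by 2.39, 2.31 and 2.20, the last not called without parotid 1 or pancreas 1, 2, 3 or 4 (adjusted p = 0.0515 to 0.0862). The summed list was at 381, 1125 and 126 TPM in parotid, highest in baboon 3, against 95.3 to 199 TPM in pancreas. MYH11 and CNN1 were called with all 5 parotid libraries as well; in baboons 2 and 5 MYH11 was at 30.5 and 12.0 TPM and KRT14 at 3.54 and 2.96 TPM.

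For plasma cells, lymphocytes and blood, vessel and stroma, the counts of called genes are to be read against the 10.1% called among all genes tested. JCHAIN, made by IgA plasma cells, was at 252, 1029.8 and 60.3 TPM in parotid and 50.0, 47.1, 25.8, 27.9 and 70.3 TPM in pancreas (2.52, adjusted p = 0.0407), the 1 gene called of 6 tested in its list. Its groups overlapped, and it was not called with all 5 parotid libraries or without parotid 1 or pancreas 2, 3 or 4 (adjusted p = 0.0596 to 0.0887). CD37 fell by 1.89, the 1 gene called of 11 tested for lymphocytes, and not without parotid 1 or 4 or pancreas 2, 3 or 4 (adjusted p = 0.0552 to 0.188); the summed lymphocyte list was at 16.6, 78.4 and 6.2 TPM in parotid and 22.2 to 44.0 TPM in pancreas. For blood, vessel and stroma limma called none of 11, as deposited or with TMM scaling; none had an unadjusted p under 0.05 as deposited and 1 did with TMM scaling.

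Adipocyte markers summed to 47.9 to 136 TPM in gland-rich parotid, 66.6 to 159 TPM in pancreas and 559 to 26098 TPM in the other parotid libraries. ACACB, the 1 of 13 that fell (-1.10, adjusted p = 0.0396), beside 7.16% of all genes tested, was not called after TMM scaling, with the animal as a fixed block (adjusted p = 0.186) or without parotid 1 or 4 or pancreas 1, 2, 3 or 4 (adjusted p = 0.0782 to 0.138). Skeletal muscle genes summed to 1059.9, 56.2 and 71.4 TPM in parotid, with baboon 1 high, and 97.2 to 783 TPM in pancreas, and MYL1 and MYLPF fell by 2.42 and 2.25, calls lost without parotid 4 or pancreas 5 (adjusted p = 0.0578 to 0.16) and without parotid 4 or pancreas 5 (adjusted p = 0.0501 to 0.0999). Hepatocyte markers summed to 388 to 1071 TPM in parotid, 934 to 1577 TPM in pancreas and 102459 to 131835 TPM in liver. Of 14 tested, TTR, which islets also make, was the one that fell, beside 7.16% of all genes tested. The part of these other cells in the differences above was not tested.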

How the data were processed

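RNA was taken from thin sections of flash-frozen tissue, and mRNA libraries were sequenced in read pairs, per the labels' protocols. The deposited values are TPM per gene made by the authors; FastQC, MultiQC, cutadapt, HISAT2, kallisto, SAMtools, featureCounts and DESeq2 are named in the submitters' processing notes, and the transcript index, genome build and annotation behind the table are not given in the sources used here. TPM carries no read depth, so the depth of each library and the counting error of each value are unknown; no coordinates or sequences are given. All 21287 identifiers matched the RefSeq Panubis1.0 gene table, which was used for names and for the order of neighbouring genes, and 4555 of them are LOC symbols. Near-identical gene copies and overlapping genes may share reads, and their values are uncertain.

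Libraries were grouped by tissue and animal from the labels, with the 3 parotid libraries at 2000 TPM or more of BPIFA2 chosen by that value. The members and lists were chosen with earlier results of these data known. Genes averaging 1 TPM or more in parotid or pancreas were tested on log2(TPM + 1) with limma 3.58.1 in R 4.3.3. Moderation was trended, and statmod 1.5.0 was used with it. The animal entered as a block with an estimated correlation of -0.18. P-values were adjusted by Benjamini-Hochberg over all genes tested. Same-numbered libraries come from the same animal, per the labels; their deviations from the group means correlated at -0.00, 0.17 and 0.38 for baboons 1, 3 and 4. Libraries of a tissue correlated at 0.910 to 0.942 (parotid) and 0.908 to 0.969 (pancreas), and between tissues at 0.784 to 0.856, over genes on the log2 scale. No test uses counts, since the values are TPM.

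Called genes had an adjusted p under 0.05 and a log2 fold change of at least 1 in size. Named genes were the 15 highest and 15 lowest fold changes among called genes averaging 10 TPM or more in the higher group, no overlap between groups, the same call after TMM scaling (factors computed on the TPM values, 0.509 to 1.63) and a symbol other than LOC and digits; members of 23 gene lists and the 10 genes of highest mean TPM in each group were described in addition; some genes that the rule or a list holds are not reported here. Alternatives were no block, a fixed animal block, TMM and median-of-ratios scaling, TPM without the 10 highest genes of each group, a pseudocount of 0.1, no filter, a filter at 5 TPM, all 5 parotid libraries, the same-animal pancreas libraries, a fit over all 25 libraries, and each library left out. After the data were seen, all 5 parotid libraries with TMM scaling, TPM without mitochondrially encoded genes, and TMM scaling without each parotid library were added. The scripts were tested on simulated data, and tables and figures were made with Python 3.11.15, pandas 2.3.3, numpy 2.4.6 and matplotlib 3.10.9.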

Additional observations from a re-analysis of the deposited data

Results flagged for a closer look

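In 12 of 145 groups of 5 pancreas values examined, on the log2 scale, 1 library lay apart from the rest by more than Dixon's critical value of 0.71 of the range; chance marks about 1 group in 20. The pancreas of baboon 5 was low for PRH2, the acidic proline-rich protein of saliva, at 1711.13 TPM against 5733 to 6439.9 TPM in the other 4 animals, and for 2 other genes that are among the most abundant in parotid. These were LOC103881672, at 3278 TPM against 7962 to 10540.2 TPM, and LOC101023064, at 215 TPM against 730 to 917 TPM. The same library was low for LOC101010627, between PNLIPRP1 and PNLIPRP3, at 16460.4 TPM against 33104 to 39063 TPM, and for SPCS1, a signal peptidase subunit, at 107 TPM against 186 to 204 TPM. It was also low for PRSS8 (13.0 TPM against 20.7 to 25.0), GRPR (0.26 TPM against 1.56 to 2.37) and GALNT12 (1.36 TPM against 3.28 to 3.55). Baboon 5 is the male of the series. The pancreas of baboon 2 was high for REG1B, an acinar regeneration protein, at 21.7 TPM against 0.786 to 2.62 TPM, and for ADRB1 (0.392 TPM against 0.152 to 0.211) and MYH11 (1.6 TPM against 0.65 to 0.879). The pancreas of baboon 3 was low for ASNS, asparagine synthetase, at 10.4 TPM against 19.6 to 23.1 TPM.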

How the results depend on the processing

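The number of genes higher in parotid (338 as deposited) was 690 with TMM scaling, 692 with median-of-ratios scaling, 689, 682 and 752 with TMM scaling without parotid 1, 3 and 4, 5441 with TPM recomputed without the 10 highest genes of each group, 67 with all 5 parotid libraries, 222 with the same-animal pancreas libraries alone and 174 with all 25 libraries in the fit. The number lower (818) was 493, 240 and 499 without those 10 genes, with all 5 parotid libraries and with all 25 libraries in the fit. Leaving out each library gave 251 to 466 higher and 495 to 2460 lower genes. Higher genes made up 29.2% of calls as deposited, 46.1% with TMM scaling, 46.4% with median-of-ratios scaling and 91.7% without the 10 highest genes. The last scaling removes the 6 genes that fill parotid together with mitochondrially encoded genes and the 10 highest genes of pancreas. The cause of these shifts was not tested.

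With no replicate block 388 genes were higher and 978 lower, and with the animal as a fixed replicate block 395 and 839, of which 264 and 657 were among the calls as deposited; the pairing comes from the animals. The fixed block ended 11 of the calls named and added those of KLK1, GCG and REG1B, given beside each gene, and without a block no named call changed. The fixed-block fit had 22840 total degrees of freedom, against 13.7 in the main fit. Its p-values thus rest on a spread pooled over genes and not on that of each gene. Of the 119 called genes examined one by one, 47 kept their call in each of the 24 alternatives that tested them and 72 lost it in at least 1. With the fits of all 5 parotid libraries set aside, as deposited and with TMM scaling, 74 lost no call. The fit over all 25 libraries was not set aside in that count. Direction changed for LOC116268615 with all 5 parotid libraries and TMM scaling (-0.36), for PRSS8 with all 5 parotid libraries (-0.14, and -0.42 with TMM scaling), for ACACB there (0.077), and for ERP44, MANF, ASNS and RAB3D without the 10 highest genes (0.18, 0.21, 0.15 and 0.36). HSPA5 turned to 0.71 without the 10 highest genes, 0.083 with all 5 parotid libraries and 0.22 with TMM scaling without parotid 3. CHRM3 turned to -0.18 with all 5 parotid libraries, -0.13 with TMM scaling added and -0.098 without parotid 3 (-0.10 to 0.36 over the libraries left out). BHLHA15 turned to 0.014 with TMM and 0.019 with median-of-ratios scaling, 1.07 without the 10 highest genes, 0.039, 0.0043 and 0.15 without pancreas 1, 3 and 4 (-0.53 to 0.15 over the libraries left out), and 0.77 with TMM scaling without parotid 3. With 3 parotid libraries, TPM of unknown depth and a choice of libraries by a salivary gene, precision is limited by the number of animals.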

Other observations

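In the 2 parotid libraries below the threshold the summed adipocyte list was at 559 TPM in the lower and 26098 TPM in the higher. Both lay above the gland-rich libraries, which held at most 136 TPM. The summed lymphocyte list was at 52.6 TPM in the lower and 2112 TPM in the higher. The lower of these lay within the gland-rich range of 6.2 to 78.4 TPM.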
